A study of Mus musculus with 4 samples.

Results

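The nuclear genes of oxidative phosphorylation were measured at day 7 and at day 4 of retinal differentiation, in aggregates made from embryonic stem cells of the mouse. Their members were all symbols of the array annotation that name a subunit of respiratory complexes I to IV or of the ATP synthase (complex V) by their stem (Nduf, Sdh, Uqcr, Cyc1, Cox4 to Cox8 and Atp5). In all, 99 symbols matched, and 90 of them had a probe set (the group of probes that measures 1 transcript) naming no other gene, out of 22180 such genes on the array. They fell into 32 subunits of complex I, 4 of complex II, 8 of complex III, 19 of complex IV, 17 of complex V, 8 assembly factors of complex I whose symbols carry the same stem, and 2 pseudogenes. Ndufa4 and its relative Ndufa4l2 were placed with complex IV, where the Ndufa4 protein is found, in spite of their names. The other 9 symbols (Ndufb2, Ndufb4, Ndufb4b, Ndufb4c, Ndufs6, Ndufs6b, Ndufs5-ps, Cox6c and Uqcr10) were named only by probe sets shared with another gene and were left out of the test.

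There were 4 arrays, 2 of day 7 and 2 of day 4, each holding RNA of wild-type aggregates cultured in retinal differentiation medium with matrigel. All 4 came from a single embryonic stem cell line, a derivative of EB5 (129/Ola) that carries GFP at the Rx promoter, a promoter active in the early eye field. Line and strain therefore did not vary. The labels do not say whether replicates were separate cultures, so every p-value below sets the day against array-to-array spread that could be purely technical. The markers of the tissue moved with the day: 7 of 8 neural and eye markers rose (Zic1 by 4.66 and Pax6 by 3.48 log2), and 5 of 6 epiblast and stem cell markers fell (Fgf5 by 4.71 log2). Sox17 of 6 endoderm markers and Kdr and Pdgfra of 4 mesoderm markers rose too, and of 5 neuron markers 1 rose and 1 fell. In such bulk samples, fewer cells of a type and less RNA per cell cannot be told apart.

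Complex I takes electrons from NADH and complex II from succinate, and both hand them to ubiquinone. Complex III passes them on to cytochrome c and complex IV to oxygen, while complexes I, III and IV pump protons across the inner mitochondrial membrane. The ATP synthase lets those protons flow back through its membrane ring to drive ATP synthesis in its F1 head. Complexes I, III, IV and V are mosaics of subunits from the nuclear and the mitochondrial genome, whereas complex II is wholly nuclear. Pluripotent cells are known for a high rate of glycolysis, and neural differentiation for a growing reliance on respiration.

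Of the 90 genes, 69 differed by under 0.25 log2 between the days. The test (limma over all 22180 genes, with Benjamini-Hochberg adjustment and a limit of 0.05) called 3 of 90 members lower and 0 higher at day 7, where 4.33% of all genes were called lower and 6.15% higher. At an unadjusted p under 0.05, 1 member was higher (12.6% of all genes) and 11 were lower (10.5% of all genes). The median day 7 minus day 4 difference was -0.06 log2 over the members, against 0.00 over all genes, and their interquartile range ran from -0.20 to 0.01, against -0.18 to 0.18 for all genes. A difference of 1 on this scale is a 2-fold difference in signal. The median was 0.03 when day 4 replicate 1 was left out and -0.18 when day 4 replicate 2 was, so its sign rested on a single array. Leaving out day 7 replicate 1 or 2 brought the count of members called lower to 1 and 0, and leaving out day 4 replicate 1 made Ndufb11 a call on the higher side. Over all genes, the calls numbered 887 and 994 without day 7 replicate 1 or 2, in place of 2324.

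How closely the arrays bound these differences is shown by their 95% confidence intervals. For 87 of 90 members the interval lay within 1 log2 either side of 0, as it did for 86.7% of all genes and 81.7% of the genes in the upper part of the signal range, above the median level. The 3 exceptions were Ndufa4l2, Ndufb11 and Ndufaf6. For 49 members it lay within 0.5 log2 (35.1% of all genes). The share with a difference under 0.25 log2 in size was 76.7% of the members, 62.4% of all genes and 52.8% of the genes above the median level. Of the members, 78 lay above the median level of 6.29, and 2 of these 78 were called, against 16.1% of all genes above that level. The limma standard error (SE) of a member's difference ran from 0.136 to 0.315 log2.

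**Figure D1:**
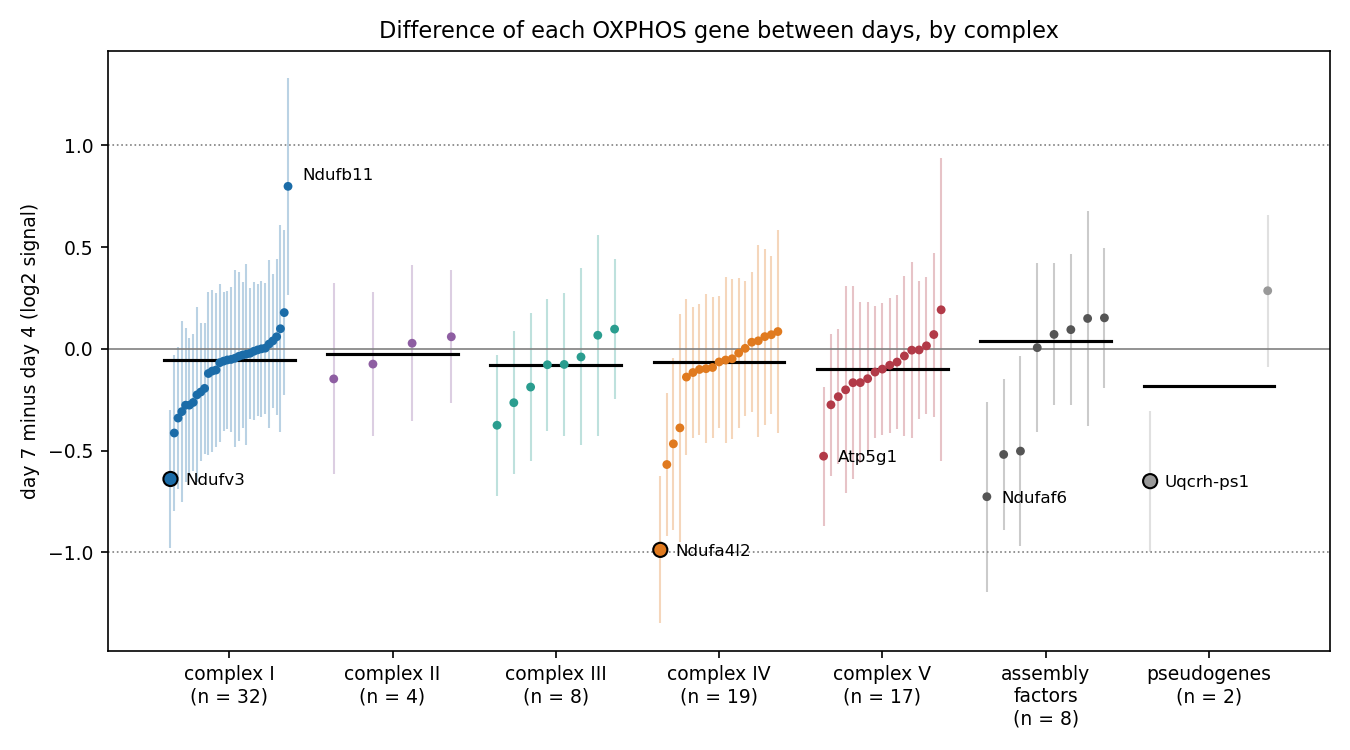
Day 7 minus day 4 difference in log2 signal (vertical axis) for each of the 90 genes, grouped by complex; points are genes in order of difference, pale bars their 95% intervals, black lines the medians, outlined points the genes called by limma, and dotted lines a 2-fold difference. The medians lie close to 0 in every complex, and the 3 called genes, Ndufa4l2, Ndufv3 and Uqcrh-ps1, all lie below it.

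Promoters of respiratory genes are known for binding sites of NRF1, of ETS factors such as GABP, and of YY1. RefSeq promoter windows (250 bases before to 50 after the start, GRCm38.p6) were found for 72 of the 88 members that are not pseudogenes, 77 windows in all. The letters GCGCA and GCGC with any 1 base between them (NRF1) occurred on either strand in 18 of these windows (23.4%), against 6.46% of the windows of genes tested and 4.6% of all 32851 windows. CCGGAAG (ETS) occurred on either strand in 19 (24.7%, against 11.4% and 8.86%) and AANATGGCG (YY1) in 10 (13%, against 3.13% and 2.38%). In the sequences printed, matches of different motifs do not overlap. A match is a description of letters and shows no binding. Shown first are the called subunit gene with a window, Ndufv3, and the gene with the largest positive difference, Ndufb11. After them come the promoters of Cox6a1, Atp5h and Sdhd, whose differences stayed within 0.15 log2. They were taken by the number of matches among members with a single window that hold 2 kinds of motif before the start. Ties were taken in alphabetical order, and members with more than 1 window were passed over. Each run holds the 250 bases before the start, 5′ to 3′ on the gene's strand, with matches in capitals. They lie at chr17:31519865-31520114 (plus strand), chrX:20617620-20617869 (minus), chr5:115348959-115349208 (minus), chr11:115419920-115420169 (minus) and chr9:50603850-50604099 (minus).
Ndufv3: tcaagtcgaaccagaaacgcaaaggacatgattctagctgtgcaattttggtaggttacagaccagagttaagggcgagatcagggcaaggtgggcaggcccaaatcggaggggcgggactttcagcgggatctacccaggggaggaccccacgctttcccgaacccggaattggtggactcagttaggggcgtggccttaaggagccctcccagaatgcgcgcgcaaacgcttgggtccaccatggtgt
Ndufb11: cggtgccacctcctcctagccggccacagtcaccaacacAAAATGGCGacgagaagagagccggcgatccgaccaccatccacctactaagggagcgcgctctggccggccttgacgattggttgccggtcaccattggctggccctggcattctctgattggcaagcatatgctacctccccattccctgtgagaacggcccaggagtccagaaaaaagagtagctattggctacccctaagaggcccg
Cox6a1: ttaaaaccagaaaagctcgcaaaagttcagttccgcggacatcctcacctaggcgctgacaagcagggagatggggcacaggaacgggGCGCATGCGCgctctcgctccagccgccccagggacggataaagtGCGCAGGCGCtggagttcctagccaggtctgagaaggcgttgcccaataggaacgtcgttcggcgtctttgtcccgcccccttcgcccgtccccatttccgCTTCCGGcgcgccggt
Atp5h: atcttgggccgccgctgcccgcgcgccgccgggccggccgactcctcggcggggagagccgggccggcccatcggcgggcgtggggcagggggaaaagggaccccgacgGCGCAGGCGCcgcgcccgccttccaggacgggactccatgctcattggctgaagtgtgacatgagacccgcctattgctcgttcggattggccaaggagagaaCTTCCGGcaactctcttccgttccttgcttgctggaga
Sdhd: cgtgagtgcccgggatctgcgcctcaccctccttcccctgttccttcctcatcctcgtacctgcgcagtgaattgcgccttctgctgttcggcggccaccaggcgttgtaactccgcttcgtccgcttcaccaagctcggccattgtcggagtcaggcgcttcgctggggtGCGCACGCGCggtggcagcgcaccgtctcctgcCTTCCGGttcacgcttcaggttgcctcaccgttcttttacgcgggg
Ndufv3 held no match and Ndufb11 a YY1 match that begins 211 bases before the start. Cox6a1 held NRF1 matches beginning 162 and 117 bases before the start and an ETS match at 16, Atp5h an NRF1 match at 141 and an ETS match at 38, and Sdhd an NRF1 match at 79 and an ETS match at 46. For Ndufa4l2 no window was used.

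The core of complex I, which carries the electrons, showed no call in either direction among its 6 measured subunits, with a median difference of -0.13 log2. Ndufs7, which holds the last iron-sulfur cluster before ubiquinone, gave 12.17 and 12.11 log2 signal at day 7, against 12.14 and 12.14 at day 4. Its days overlapped, and its difference of 0.00 had a 95% interval of -0.32 to 0.33, so a 2-fold change lay outside the interval. Ndufs3 had a difference of 0.00 (-0.33 to 0.32), and Ndufv2, an iron-sulfur subunit, had -0.03. Ndufv1, which binds NADH and the flavin, gave 10.31 and 10.16 at day 7, against 10.54 and 10.45 at day 4. Both of its day 7 values lay under both day 4 values, but the difference of -0.26 (SE 0.143) had a limma adjusted p of 0.348. The iron-sulfur subunit Ndufs8 also kept both day 7 arrays under both day 4 arrays, at 10.38 and 10.29 at day 7 against 10.66 and 10.56 at day 4 (difference -0.28, adjusted p = 0.311). Ndufs1, the largest subunit, had a difference of -0.23 with overlapping days (adjusted p = 0.567). A second probe set that names Ndufs1 together with the antisense gene Ino80dos gave 6.25 and 6.24 at day 7, against 5.65 and 5.48 at day 4, and which of the genes it measures was not tested.

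Of the 26 accessory subunits of complex I, Ndufv3 was the 1 that passed the test, against 10.5% of all genes in either direction. Ndufv3, an accessory subunit of the NADH-binding module (probe set 17335865), gave 8.27 and 8.21 at day 7, against 8.97 and 8.79 at day 4. The days did not overlap, and the mean fell to 8.24 ± 0.04 at day 7, against 8.88 ± 0.13 at day 4 (SD, n = 2 each), a 1.56-fold lower signal (log2 difference -0.64, SE 0.145, limma adjusted p = 0.0338). Leaving out day 4 replicate 1, day 7 replicate 1 or day 7 replicate 2 ended this call (adjusted p of 0.102, 0.177 and 0.207), and the adjusted p ran from 0.0112 to 0.207 over the alternatives that keep a variance prior.

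The largest positive difference of any member was that of Ndufb11, an X-linked subunit of the membrane arm (probe set 17540490). It gave 6.86 and 6.48 at day 7, against 6.15 and 5.59 at day 4. Both day 7 arrays were above both day 4 arrays, but the replicates of a day lay 0.38 and 0.56 apart, and the difference of 0.80 (SE 0.225, 95% interval 0.27 to 1.33) did not pass (limma adjusted p = 0.0725). A block for the replicate number gave 0.0154 and leaving out day 4 replicate 1 gave 0.0201, and over the alternatives that keep a variance prior the range was 0.0154 to 0.377. Ndufb5, the next of the accessory subunits on this side, had a difference of 0.18 (adjusted p = 0.641). Ndufa7 stood on the other side, at 9.34 and 9.17 at day 7 against 9.81 and 9.52 at day 4 (difference -0.41, adjusted p = 0.182). The other X-linked subunit of complex I measured here, Ndufa1, had a difference of 0.10 with overlapping days. For the remaining accessory subunits, differences ran from -0.34 (Ndufb10) to 0.06 (Ndufa3), among them those of Ndufs4 (-0.01), Ndufa9 (-0.10), Ndufa10 (-0.06) and the acyl carrier protein Ndufab1 (-0.11). In all of complex I, both day 7 values were under both day 4 values for 9 of 32 subunits and over them for 1, where all genes gave 25.1% and 25.6%.

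The 8 assembly factors of complex I had a median difference of 0.04 and an interquartile range of -0.51 to 0.11, against -0.22 to 0.00 for its subunits, and limma called 0 of them. At an unadjusted p under 0.05, 3 were lower and 0 higher, against 10.5% and 12.6% of all genes. Ndufaf6 had the largest difference of the 8, with 7.43 and 7.34 at day 7, against 8.38 and 7.84 at day 4 (difference -0.73, SE 0.198, adjusted p = 0.065). Its day 4 replicates lay 0.54 apart; it was called in 7 of the 13 alternatives, and its adjusted p ran from 0.0101 to 0.292 where a variance prior was kept. Ndufaf3 gave 9.16 and 8.99 at day 7, against 9.72 and 9.47 at day 4 (difference -0.52, adjusted p = 0.0913). Ndufaf7, which methylates a core subunit during assembly, gave 7.72 and 7.38 at day 7, against 8.27 and 7.84 at day 4 (difference -0.50, adjusted p = 0.184). For these 3 of the 8 factors the days did not overlap, with day 7 below day 4, as they did not for 25.1% of all genes. The other 5 factors, Ndufaf1, Ndufaf2, Ndufaf4, Ndufaf5 and Ndufaf8, had differences between 0.01 and 0.15, and among them the days were apart for Ndufaf8 alone.

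Complex II, which is also an enzyme of the tricarboxylic acid cycle, had 0 of 4 genes called and 0 at an unadjusted p under 0.05. Sdha, the flavin subunit that oxidises succinate, gave 10.87 and 10.72 at day 7, against 10.97 and 10.77 at day 4. The iron-sulfur subunit Sdhb gave 9.33 and 9.06 at day 7, against 9.27 and 9.07 at day 4. Days overlapped for both, with differences of -0.07 (95% interval -0.43 to 0.28) and 0.03 (-0.36 to 0.41). The membrane anchors Sdhc and Sdhd had differences of 0.06 (-0.27 to 0.39) and -0.15 (-0.62 to 0.32). All 4 genes were higher in replicate 1 than in replicate 2 at both days, and for all 4 the day difference was smaller than the larger of the replicate gaps.

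In complex III, 0 of 8 subunits were called, where 4.33% of all genes were called lower and 6.15% higher. At an unadjusted p under 0.05, 1 was lower and 0 were higher, against 10.5% and 12.6% of all genes. The cytochrome c1 gene Cyc1, a catalytic subunit, gave 10.94 and 10.71 at day 7, against 11.08 and 11.10 at day 4. Its days did not overlap, but the difference of -0.26 did not pass (adjusted p = 0.368). The Rieske iron-sulfur protein gene Uqcrfs1 had a difference of -0.04, and the core proteins Uqcrc1 and Uqcrc2 had -0.08 and 0.10. Uqcr11, a small subunit, had the largest difference of the complex, with 8.58 and 8.41 at day 7, against 8.94 and 8.81 at day 4 (difference -0.38, SE 0.147, adjusted p = 0.182). Uqcrb, Uqcrh and Uqcrq had differences of 0.07, -0.08 and -0.19.

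Complex IV is the member of the chain with most alternative isoforms, and its common and its alternative subunits are set side by side here. On the brightest probe set of each gene, the 10 common subunits all had differences under 0.25 log2 in size, between -0.12 (Cox6a1) and 0.09 (Cox7c). Of these, 0 were called and 0 had an unadjusted p under 0.05. The dimmer probe set of Cox7b had a difference of -0.31 and that of Cox5b 0.21. Cox4i1, the regulatory subunit made in most tissues, gave 10.31 and 10.21 at day 7, against 10.31 and 10.20 at day 4 (difference 0.00, 95% interval -0.33 to 0.34). Cox5a, Cox5b, Cox6b1, Cox7a2, Cox7b and Cox8a had differences of -0.02, -0.05, -0.05, -0.10, 0.07 and -0.10. Cox7a2l, a factor that joins complexes III and IV into supercomplexes, had a difference of 0.03.

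The 8 alternative subunits had a median difference of -0.26. Limma called 1 of them, where 4.33% of all genes were called lower and 6.15% higher. Ndufa4l2, a relative of Ndufa4 known as a target of hypoxia-inducible factors (probe set 17238054), gave 6.44 and 6.26 at day 7, against 7.24 and 7.43 at day 4. It fell to 6.35 ± 0.13 at day 7, against 7.33 ± 0.14 at day 4 (SD, n = 2 each), a 1.98-fold lower signal and the largest difference of all 90 members (log2 difference -0.99, SE 0.153, 95% interval -1.35 to -0.63, limma adjusted p = 0.00803). The days lay far apart compared with the replicates of either day. Without day 7 replicate 2 the adjusted p was 0.0785, and over the alternatives with a variance prior it ran from 0.00287 to 0.0785. Ndufa4 itself gave 10.61 and 10.39 at day 7, against 10.71 and 10.21 at day 4, with a difference of 0.04 (-0.43 to 0.51). Cox4i2, the form of Cox4 known from lung and low oxygen, gave 7.84 and 7.41 at day 7, against 7.48 and 7.65 at day 4 (difference 0.06, adjusted p = 0.91).

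The isoforms known from heart and skeletal muscle are Cox6a2, Cox7a1 and Cox8b. Cox7a1 gave 7.46 and 7.78 at day 7, against 8.23 and 7.94 at day 4, which did not overlap but did not pass (difference -0.47, adjusted p = 0.174). Cox6a2 had a difference of -0.09, and Cox8b one of -0.39 that came from day 4 replicate 2 alone (3.91 and 3.96 at day 7, against 3.96 and 4.69 at day 4). Cox8b was called without day 4 replicate 1, where day 4 replicate 2 stood alone for its day (difference -0.75, adjusted p = 0.0358). Of 8 cardiac and skeletal muscle markers 0 were called, their single values lay between 4.53 and 6.51 at day 7 and between 4.65 and 6.74 at day 4, and the log2 of their summed signal was 8.57 on both day 7 arrays, against 8.46 and 8.82 on the day 4 arrays. Of the testis isoforms, Cox7b2 gave 2.94 and 2.85 at day 7, against 3.56 and 3.36 at day 4 (difference -0.57, adjusted p = 0.0565, and 0.0337 to 0.298 over the alternatives). Its mean signal lay at percentile 4.84 of all genes. Cox6b2 and Cox8c had differences of -0.14 and -0.06. Of 3 germ cell markers, Ddx4 fell by 1.75 log2 and the other 2 were not called, the log2 of their summed signal being 7.70 and 7.83 at day 7, against 8.82 and 8.33 at day 4. Their part in these values was not tested.

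**Figure D2:**
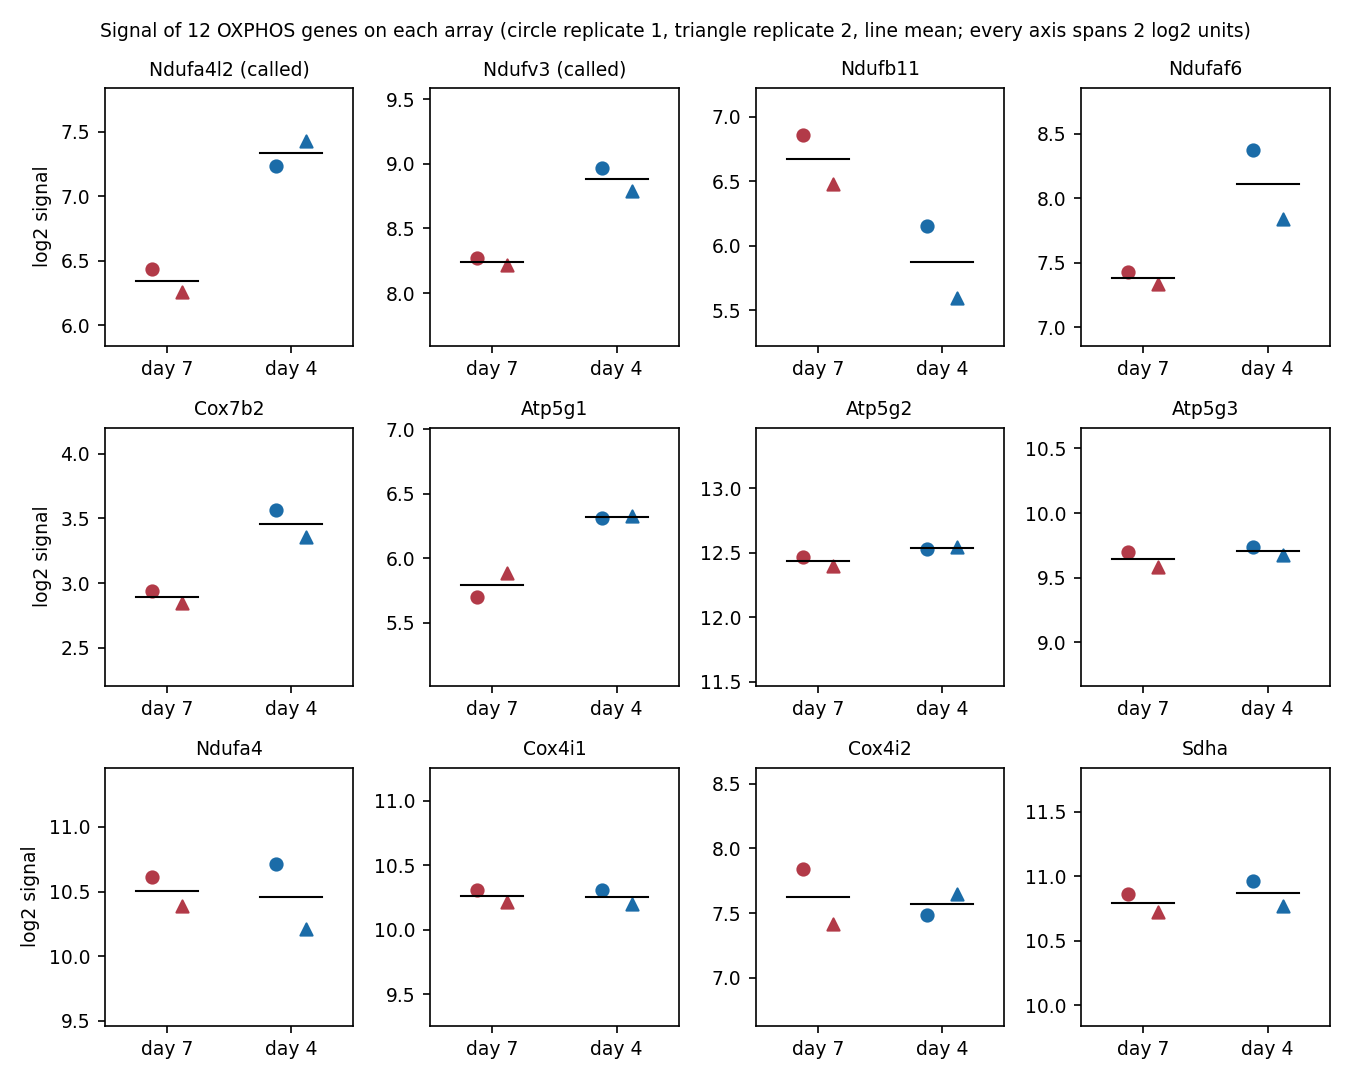
Log2 signal of 12 oxidative phosphorylation genes on each array (vertical axis, 2 log2 units in every panel), day 7 in red on the left and day 4 in blue on the right, with circles for replicate 1, triangles for replicate 2 and lines for the means. Ndufa4l2 and Ndufv3 separate by day well beyond their replicates, whereas Ndufa4, Cox4i1, Cox4i2 and Sdha overlap.

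The ATP synthase had 0 of 17 subunits called, where 6.15% of all genes were called higher and 4.33% lower. At an unadjusted p under 0.05 it had 0 higher and 1 lower, against 12.6% and 10.5% of all genes. Its median difference was -0.10 (0.00 with day 4 replicate 1 left out, -0.19 with day 4 replicate 2 left out). Of its differences, 14 of 17 were below 0, against 63 of 90 over all members and 50.7% of those of all genes. The count was 24 of 32 in complex I, 6 of 8 in complex III and 13 of 19 in complex IV. It was 2 of 4 in complex II and 3 of 8 for the assembly factors of complex I. Cytosolic ribosomal protein genes gave 53 of 66 and mitochondrial ones 53 of 71, so this lean was not seen in complex V alone. In the F1 head, the catalytic subunit Atp5b gave 12.98 and 13.00 at day 7, against 13.15 and 13.06 at day 4, and its partner Atp5a1 gave 11.91 and 11.84, against 12.01 and 11.90. Their differences were -0.11 and -0.08, with intervals of -0.44 to 0.21 and -0.41 to 0.25. Atp5c1, the gamma subunit that turns within the head, had a difference of -0.01. Atp5d, the delta subunit of the rotor, gave 11.08 and 10.95 at day 7, against 11.20 and 11.38 at day 4 (difference -0.27, adjusted p = 0.34), while its other probe set had a difference of 0.01. Those of Atp5e were -0.15 and -0.24.

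The c subunit of the membrane ring is encoded by Atp5g1, Atp5g2 and Atp5g3, whose mature proteins are the same and whose import leaders differ. Atp5g1 gave 5.70 and 5.89 at day 7, against 6.31 and 6.33 at day 4 (difference -0.53, SE 0.145, adjusted p = 0.0665). The days did not overlap, and centring the arrays on their medians gave an adjusted p of 0.0441 (0.0441 to 0.379 over the alternatives). Atp5g2 gave 12.47 and 12.40 at day 7, against 12.53 and 12.54 at day 4, a difference of -0.10, and Atp5g3 had a difference of -0.06. Whether Atp5g1 differed from the other c subunit genes in its day difference was not tested. The stalk subunits Atp5h, Atp5j, Atp5o and Atp5pb had differences of 0.07, 0.02, -0.17 and -0.03. Among the small membrane subunits, Atp5j2, Atp5k, Atp5l and Atp5md had -0.17, -0.23, -0.20 and 0.00. Atpif1, which inhibits the synthase and lies outside the symbol rule, had -0.23 (adjusted p = 0.408). Atp5mpl was the member with the widest interval (difference 0.19, -0.55 to 0.94), since it gave 9.18 and 8.75 at day 7, against 9.27 and 8.28 at day 4.

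The third call was a pseudogene. Uqcrh-ps1 (probe set 17321663) gave 3.65 and 3.48 at day 7, against 4.15 and 4.28 at day 4 (difference -0.65, SE 0.147, limma adjusted p = 0.0336) and lay in the lowest 25% of genes by mean signal. Leaving out day 4 replicate 2 ended the call (adjusted p = 0.0814), as did leaving out either day 7 array (0.132 and 0.235). Its parent gene Uqcrh had a difference of -0.08. The pseudogene Atp5c1-ps gave 3.29 and 3.17 at day 7, against 2.80 and 3.09 at day 4 (adjusted p = 0.357). Respiratory genes have many near-identical copies in the genome, and a probe set of a member can hold signal of such copies.

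Where a gene had several probe sets, their differences were not always alike. Of 9 members with more than 1 probe set to themselves, Ndufa8 had differences of -0.05 and -0.46, Ndufa12 -0.05 and -0.35, Cox7b 0.07 and -0.31, and Cox5b -0.05 and 0.21, the brighter probe set first. For Atp5g2 they were -0.10 and -0.12, and for Atp5h 0.07 and 0.08. The symbols seen only in shared probe sets gave differences of -0.07 (Ndufb2 with Adck2), 0.10 (Ndufb4 with its copies), -0.06 and -0.24 (Ndufs6 with Ndufs6b), -0.10 and 0.02 (Cox6c with Gm6265), -0.41 (Ndufs5-ps with Ndufs5) and -0.39 (Uqcr10 with Gm6293).

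Replicates of a day also differed. At day 7, replicate 1 was above replicate 2 for 79 of 90 members (52.6% of all genes, 61.7% of those above the median level), with a median gap of 0.12 log2. At day 4 it was above for 71 of 90 (48.4% of all genes, 61.6% of those above the median level), with a median gap of 0.17. For 63 members replicate 1 was above at both days (29.7% of all genes, 41.5% of those above the median level). The median signal of the members was 9.15 and 8.95 on the day 7 arrays, against 9.27 and 8.96 on the day 4 arrays. For 65 of 90 members the day difference was smaller than the larger of its replicate gaps, as it was for 60.5% of all genes and 47.6% of those above the median level. Among mitochondrial ribosomal protein genes, replicate 1 was above for 66 of 71 at day 7 and 64 at day 4. Cytosolic ribosomal protein genes gave 40 of 66 at day 7 and 54 at day 4. The markers of the tissue also differed between replicates. Of 8 neural and eye markers, replicate 1 was above for 1 at day 4 (median gap -0.48 log2) and 4 at day 7. Of 6 epiblast and stem cell markers, it was above for 6 at day 4 (median gap 0.17) and 1 at day 7. What set these arrays apart was not tested.

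**Figure D3:**
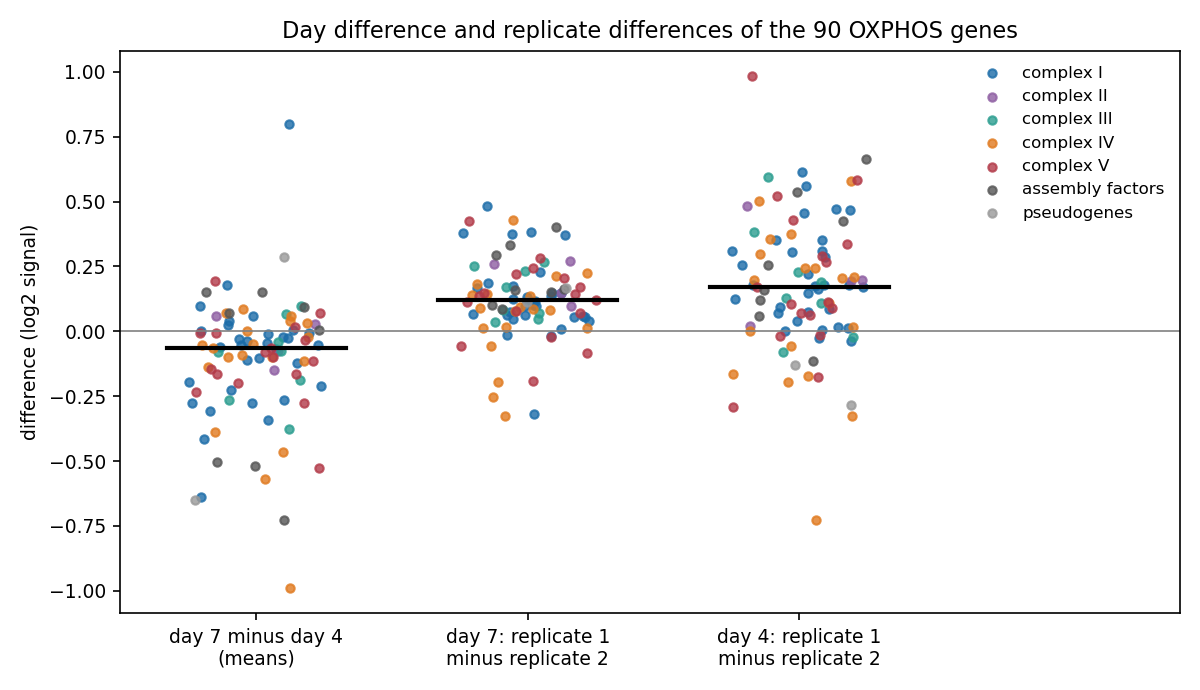
Difference in log2 signal (vertical axis) of each of the 90 genes between the days and between the replicates of each day, coloured by complex, with medians as black lines. The medians are -0.06 for day 7 minus day 4, 0.12 for replicate 1 minus replicate 2 at day 7 and 0.17 at day 4.

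Among the genes around the chain, the 10 mitochondrially encoded subunits that were measured showed little difference. Theirs lay between -0.08 (ND6) and 0.04 (ND4), with 0 called and 0 at an unadjusted p under 0.05, and all 10 intervals lay within 0.5 log2. COX1, the catalytic subunit of complex IV, gave 13.35 and 13.38 at day 7, against 13.41 and 13.25 at day 4. Of the 10, 9 had 12.92 or more on every array, near the highest value of the gene table (13.69), and whether that limits their differences was not tested. Cytochrome c (Cycs) had a difference of -0.11 (adjusted p = 0.744), and of the 8 electron carriers 0 were called. Of 12 tricarboxylic acid cycle genes 0 were called, with a median difference of 0.02 and the largest for citrate synthase (Cs, 0.41, adjusted p = 0.137).

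Assembly factors outside the symbol rule had 1 of 37 called, where 6.15% of all genes were called higher and 4.33% lower. Sdhaf1, needed to place the iron-sulfur clusters of complex II, rose to 9.30 and 9.06 at day 7, against 8.63 and 8.38 at day 4 (difference 0.67, adjusted p = 0.045). Leaving out day 4 replicate 2 (0.114) or either day 7 array (0.288 and 0.122) ended its call. Of 9 genes of mitochondrial membrane transport (carriers and uncoupling proteins of the inner membrane and the Vdac porins of the outer membrane), 1 rose and 1 fell. Slc25a4, an ADP/ATP carrier of heart, muscle and brain, rose to 10.52 and 10.36 at day 7, against 9.69 and 9.45 at day 4 (difference 0.87, 1.83-fold, adjusted p = 0.0144). Slc25a31, the carrier of germ cells, fell to 5.21 and 5.01 at day 7, against 5.85 and 5.64 at day 4 (difference -0.63, adjusted p = 0.0467). Slc25a5, the form of dividing cells, had -0.23 (adjusted p = 0.432). The call of Slc25a4 ended when day 7 replicate 1 (0.128) or 2 (0.0737) was left out. That of Slc25a31 ended when day 4 replicate 1 (0.134) or either day 7 array (0.145 and 0.289) was.

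In the step that feeds pyruvate to the mitochondrion, 1 of 11 genes rose and 0 fell (6.15% and 4.33% of all genes). Mpc1, a subunit of the mitochondrial pyruvate carrier, gave 9.63 and 9.61 at day 7, against 8.84 and 8.13 at day 4 (difference 1.13, 2.19-fold, SE 0.233, limma adjusted p = 0.0238). Leaving out day 7 replicate 1 or 2 gave 0.141 and 0.127, which ended the call. Among 18 regulators of mitochondrial biogenesis, 1 rose and 1 fell. Ppargc1a, the coactivator known as a driver of mitochondrial biogenesis, gave 4.43 and 5.03 at day 7, against 3.61 and 3.77 at day 4 (difference 1.04, adjusted p = 0.0228). Leaving out day 4 replicate 1 (0.0618) or day 7 replicate 2 (0.124) ended its call, and its mean signal lay at percentile 19.0 of all genes. Polg2, the accessory subunit of the mitochondrial DNA polymerase, fell by 0.85 log2 (adjusted p = 0.0116, which became 0.112 or 0.0742 when either day 7 array was left out). The factors whose motifs were searched above had small differences, Nrf1 with -0.15, Gabpa with -0.04 and Yy1 with 0.10. Tfam, which packages mitochondrial DNA and acts as a factor in its transcription, had -0.10.

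Of 18 genes of glycolysis and lactate handling, 4 fell and 0 rose, where 4.33% of all genes were called lower and 6.15% higher. Their median difference was -0.33, against -0.06 for the oxidative phosphorylation genes. Slc16a3, a lactate exporter, fell by 1.37 log2 (adjusted p = 0.0126), Aldoc by 1.20 (0.00457), Pfkp, a form of phosphofructokinase, by 1.14 (0.00413) and lactate dehydrogenase Ldha by 1.02 (0.0293). Without day 7 replicate 1 the adjusted p was 0.0532 for Slc16a3, 0.0513 for Pfkp and 0.192 for Ldha, and without day 7 replicate 2 it was 0.108 for Ldha. Both day 7 values lay under both day 4 values for 13 of these 18 genes, against 28 of the 90 members and 25.1% of all genes. At an unadjusted p under 0.05, 9 of the 18 were lower and 0 higher, against 10.5% and 12.6% of all genes. Of the 71 mitochondrial ribosomal protein genes 2 fell (Mrps18b and Mrps34) and 0 rose, and of the 66 cytosolic ones 2 fell (Rpl37a and Rps4l) and 0 rose, with medians of -0.12 and -0.09. Each of these 4 calls ended when some array was left out. For Mrps18b that was day 4 replicate 1 (adjusted p = 0.0864) or either day 7 array (0.124 and 0.198), and for Mrps34 day 4 replicate 2 (0.0823) or either day 7 array (0.129 and 0.229). For Rpl37a it was day 4 replicate 1 (0.0755) or day 7 replicate 2 (0.168), and for Rps4l day 7 replicate 1 (0.0748). No test of one list against another was made.

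**Figure D4:**
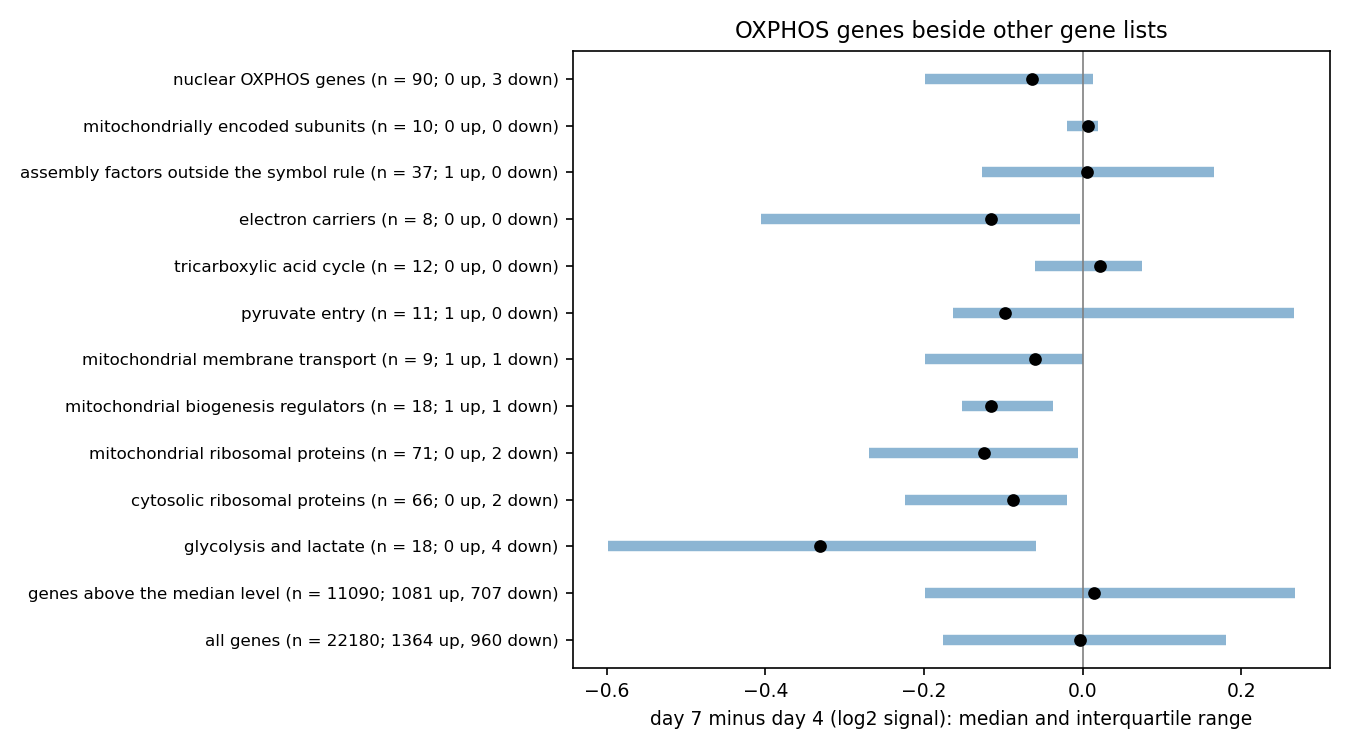
Median (point) and interquartile range (bar) of the day 7 minus day 4 difference in log2 signal (horizontal axis) for the nuclear oxidative phosphorylation genes and for other gene lists, with the number of genes and of limma calls beside each. The oxidative phosphorylation genes have a median of -0.06, the mitochondrially encoded subunits 0.01 and the glycolysis and lactate genes -0.33.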

How the data were processed

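Total RNA of 4 samples was hybridised to Affymetrix gene arrays after sense-strand cDNA synthesis and biotin labelling, per the labels' protocols. The authors deposited log2 values per probe set, and the submitters' processing notes name RMA and Partek 6.5; other settings are not given in the sources used here. RMA equalises the arrays' distributions, which hides any shift common to most genes, and residual background shrinks folds of dim genes. Array medians were 5.68 to 5.77. Of 41345 probe sets, 23521 named 1 gene, 1814 several and 16010 none here. The probe set with the highest mean was kept per gene (22180 genes).

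Day 7 minus day 4 was fitted with limma 3.58.1 (lmFit, eBayes) in R 4.3.3, two-sided, with day as the only term, 2 residual degrees of freedom and Benjamini-Hochberg adjustment over all genes; 2 arrays a day limit the precision. The fit was tested on simulated data, where a limit was set only for recovery of the largest changes and for the share of false calls. How often it recovers differences as small as most of those here is not given. Members, lists and tests were chosen with earlier results of these data known. Named members were all called ones, the 2 largest differences each way per complex, fixed isoform sets and the Sdh genes. The plan for the other lists was up to 3 called genes each way, but every called gene outside the marker lists was named. Counts describe lists; no list was tested. Other genes named as examples were chosen after their values were seen. Alternatives were a replicate block, leaving out each array, other normalizations, filters, variance priors and limits, and probe sets averaged per gene.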

Additional observations from a re-analysis of the deposited data

How the results depend on the processing

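The count of members called lower (3) was 6 with arrays centred on their median and when the variance prior followed signal intensity, robustly or not. It was 5 with the replicate number as a block, 1 at a limit of 0.01, 7 at a limit of 0.1, 0 with no variance prior and 0 to 4 with 1 array left out. The count called higher (0) was 1 with a robust intensity trend, with the replicate block, at a limit of 0.1 and without day 4 replicate 1 (0 to 1 with 1 array left out), each time Ndufb11. Over all genes the 2324 calls became 3 with no variance prior and 1078 at a limit of 0.01, and 887 to 2500 with 1 array left out, which leaves 1 sample for its day and assumes that it varies like the other day's. The other counts stayed within 1.5 times. With the replicate block all genes gave 2770 calls. The deviations of the same-numbered replicates from their day means correlated with r = 0.19 across genes, which are not independent, and 2 numbers cannot show a pairing. Of the complex medians, that of complex III ranged from -0.23 to -0.0398 and that of complex V from -0.186 to -0.0012 with 1 array left out. The median over all members ranged from -0.18 to 0.03, that of complex I from -0.18 to 0.03, that of complex II from -0.13 to 0.08 and that of complex IV from -0.12 (without day 7 replicate 1) to -0.02 (without day 4 replicate 1). Other settings moved every median by less than the spread between replicate arrays, though centring set it at -0.11 over all members. Of 40 named members, 16 changed sign under some alternative, and 0 of these were among the 3 called. Signal near background limits Cox7b2, Cox8b, Cox8c and the pseudogenes.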
